A study of Mus musculus with 6 samples.

Results

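The genes described here are those of the epidermal differentiation complex, a dense cluster on mouse chromosome 3 that encodes the proteins of the cornified envelope and their calcium-binding neighbours. The members were all array probes, control spots excepted, whose accession belongs to a gene with a symbol starting Lce, Sprr or S100a, or to Flg, Flg2, Lor, Ivl, Rptn, Hrnr, Tchh, Crnn or Crct1. Of the 63 symbols that meet this rule in the RefSeq gene table, 58 were matched to 67 of the 55681 probes on the array, among 21368 genes that could be named. They comprised 21 Lce genes, 14 Sprr genes, 15 S100a genes, the 5 S100-fused genes Crnn, Flg2, Hrnr, Rptn and Tchh, and Lor, Ivl and Crct1. No probe was matched to the other 5 symbols, Sprr2a1, Sprr2a3, Sprr2c-ps, Flg and S100a11-ps, of which 2 are pseudogenes. For the 8 genes with several probes, values are those of the probe with the strongest mean signal.

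When a keratinocyte leaves the basal layer and differentiates, it builds a cornified envelope beneath its plasma membrane. Involucrin (Ivl) and the small proline-rich proteins (Sprr) are laid down early, loricrin (Lor) and the late cornified envelope proteins (Lce) reinforce the structure later, and transglutaminases cross-link all of them. The S100-fused proteins are large repeat proteins that bundle keratin or strengthen the envelope, whereas the S100a proteins are small calcium sensors that many cell types use.

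The study asked what the SoxC transcription factors SOX4 and SOX11 do in keratinocytes. Primary skin keratinocytes came from newborn pups of a mixed 129SvEx:C57BL/6 background, crossed per the study's methods to a Cre line on FVB/N. They lacked Sox4 (Sox4 cKO), Sox11 (Sox11 cKO) or both (Sox4/11 dcKO, here dcKO), and wild-type keratinocytes served as control. Per the study's methods the floxed alleles were deleted by Cre under the Krt14 promoter, which is active in basal keratinocytes, and the breeding also involved a Sox12 null allele, whose state in the cells on the arrays is not stated. The cells were first grown on J2 fibroblast feeders and then passaged without them. Each genotype was compared with wild type on 2 two-colour Agilent arrays described as biological replicates, with knockout RNA in Cy5 on replicate 1 and in Cy3 on replicate 2, so that replicate and dye orientation cannot be told apart within a genotype. Whether the wild-type RNA of different arrays came from the same cultures is not stated. Values are log2 ratios of knockout over wild type on an array, or log2 levels of one RNA on an array after normalisation. Levels are set side by side between arrays for the same probe, never between probes.

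Between 35.1% and 45% of probes were well above background in a given channel, and no spot was saturated. The targeted genes followed the labels. The Sox4 ratio was -2.49 and -2.54 on the Sox4 cKO arrays and -2.23 and -2.81 on the dcKO arrays, and the Sox11 ratio was -3.31 and -2.65 on the Sox11 cKO arrays and -3.07 and -3.79 on the dcKO arrays. Basal keratinocyte markers were bright in all samples, with Krt14 levels between 16.12 and 16.85. The suprabasal keratin Krt1 was above background on 2 of 6 arrays and Krt10 on all 6, while Lor and Ivl, the markers of terminal differentiation, were above background in both RNAs of all 6 arrays. Of the 8 fibroblast markers, Col1a1, Col3a1, Lum, Pdgfrb and Thy1 were above background on no array, and the summed level of the list lay between 7.98 and 8.23 in knockout and 7.91 and 8.09 in wild-type RNA. The summed level of 4 melanocyte markers lay within 7.33 to 8.07 over all RNAs.

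The sequences before the transcription start differed between the subfamilies whose values are described here, and a few are shown because the Lce and Sprr2 genes differed widely between arrays. RefSeq promoters of 300 bases (250 before the start and 50 after it, GRCm38.p6) were found for 51 of the 58 members. The motifs were chosen after these sequences had been seen, and a match is a description of letters only. AACAAT and ACAAAG were searched as well, on both strands. Each occurred in 8 of 51 member promoters (15.7%), against 10.7% and 18.7% of all promoters. The motif ATAAAA, read on the gene's strand and starting at positions -45 to -25 from the transcription start, stood in 18 of 20 Lce promoters, 6 of 12 Sprr promoters and 1 of 12 S100a promoters, against 1.85% of all 32851 promoters. In 6 Lce genes it is given in capitals, preceded in Lce1m by the overlapping TATAAA, in windows that end 1 base before the start. Lce1a2 lies on the minus strand at chr3:92670316-92670375, Lce1c on the plus strand at chr3:92679187-92679246, Lce1m on the minus strand at chr3:93019062-93019121, and Lce3c, Lce3d and Lce3f on the plus strand at chr3:92944426-92944485, chr3:92957330-92957389 and chr3:92992157-92992216.
Lce1a2: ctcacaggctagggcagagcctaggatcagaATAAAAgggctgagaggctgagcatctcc
Lce1c: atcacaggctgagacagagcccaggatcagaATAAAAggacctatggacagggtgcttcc
Lce1m: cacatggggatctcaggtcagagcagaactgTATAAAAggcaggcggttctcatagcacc
Lce3c: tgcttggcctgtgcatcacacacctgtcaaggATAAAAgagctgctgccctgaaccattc
Lce3d: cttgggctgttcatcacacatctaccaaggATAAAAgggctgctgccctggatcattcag
Lce3f: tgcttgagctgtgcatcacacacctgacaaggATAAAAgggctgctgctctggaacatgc

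The Sprr2 promoters shared a different arrangement, with TATAAA in the same window and the AP-1 motif TGANTCA (searched on both strands) further from the start. TATAAA stood in that window in 10 of 12 Sprr promoters and 2 of 20 Lce promoters, against 2.05% of all promoters. TGANTCA occurred anywhere in 9 of 12 Sprr promoters and in 0 of 20 Lce promoters, against 7.81% of all promoters, and it began at positions -200 to -190 in 7 of 8 Sprr2 promoters, against 0.307% of all. AP-1 is the Fos and Jun family of transcription factors, long known at the involucrin and loricrin promoters. Both motifs are in capitals for Sprr2d (chr3:92338930-92339139), Sprr2e (chr3:92351933-92352142) and Sprr2i (chr3:92407781-92407990), all on the plus strand.
Sprr2d: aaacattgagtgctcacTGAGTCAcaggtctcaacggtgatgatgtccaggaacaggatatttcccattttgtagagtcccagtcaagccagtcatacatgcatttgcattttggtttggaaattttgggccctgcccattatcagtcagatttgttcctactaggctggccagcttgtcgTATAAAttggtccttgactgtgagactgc
Sprr2e: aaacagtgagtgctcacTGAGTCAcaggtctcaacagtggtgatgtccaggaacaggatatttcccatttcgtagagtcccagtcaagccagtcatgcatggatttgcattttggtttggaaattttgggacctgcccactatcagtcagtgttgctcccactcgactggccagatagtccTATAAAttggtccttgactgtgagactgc
Sprr2i: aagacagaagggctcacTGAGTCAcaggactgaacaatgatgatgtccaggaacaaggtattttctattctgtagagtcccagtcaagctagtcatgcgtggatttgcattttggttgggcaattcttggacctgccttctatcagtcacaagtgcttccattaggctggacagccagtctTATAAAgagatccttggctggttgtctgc

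The single-copy genes Ivl (chr3:92573736-92573865, minus strand), Lor (chr3:92083143-92083202, minus strand), Crnn (chr3:93144679-93144788, plus strand) and Rptn (chr3:93393589-93393698, plus strand) also held both motifs, shown in capitals with ATAAAA where it overlaps TATAAA.
Ivl: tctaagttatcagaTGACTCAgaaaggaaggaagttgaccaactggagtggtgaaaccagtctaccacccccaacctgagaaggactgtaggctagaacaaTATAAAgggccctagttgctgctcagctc
Lor: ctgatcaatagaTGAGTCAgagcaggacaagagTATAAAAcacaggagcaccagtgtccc
Crnn: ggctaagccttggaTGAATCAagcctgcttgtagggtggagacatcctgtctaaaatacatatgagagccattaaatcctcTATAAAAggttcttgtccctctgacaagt
Rptn: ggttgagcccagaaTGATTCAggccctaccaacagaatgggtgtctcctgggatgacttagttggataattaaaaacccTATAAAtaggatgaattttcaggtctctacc

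Nearly all members passed no test in any comparison, and for many the 2 arrays of a genotype lay far apart. In a limma fit over all 55681 probes with the dye effect as a term, a probe was called at a Benjamini-Hochberg adjusted p below 0.05 and an absolute log2 fold change above 1.5. None of the 67 member probes was called in Sox4 cKO against wild type, where 0.142% of all probes were, and 4 (5.97%) had an unadjusted p below 0.05, against 7.40% of all probes. None was called in Sox11 cKO against wild type, where 0.0862% of all probes were, although 25 (37.3%) had an unadjusted p below 0.05, against 6.84% of all probes. In dcKO against wild type 1 probe, of Sprr2a2, was called among 0.756% of all probes, 3 passed the adjusted p alone among 2.06% of all probes, and 16 (23.9%) had an unadjusted p below 0.05, against 13.0% of all probes. The same Sprr2a2 probe was the 1 member called in dcKO against Sox4 cKO (0.562% of all probes) and in dcKO against Sox11 cKO (0.449%). In Sox4 cKO against Sox11 cKO, where 0.0108% of all probes were called, no member was, and 17 (25.4%) had an unadjusted p below 0.05, against 6.35% of all probes. The dcKO arrays enter 3 of these comparisons, which therefore share samples. The counts turned on single arrays, as did the counts over all probes. Without Sox11 cKO replicate 1 they became 28 in Sox11 cKO against wild type (1.43% of all probes), 26 in dcKO against Sox11 cKO (2.77%), 27 in Sox4 cKO against Sox11 cKO (1.43%) and 7 in dcKO against Sox4 cKO (1.46%). Without Sox11 cKO replicate 2 they became 1 (0.33% of all probes), 3 (0.844%), 0 (0.365%) and 7 (1.46%) in the same order.

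The ratios of the 58 genes in chromosome order show where the arrays parted. On Sox11 cKO replicate 2, 51 of 58 members had a ratio below 0, with a median of -1.53, whereas on Sox11 cKO replicate 1, 47 of 58 were above 0, with a median of 0.31. The 2 arrays had opposite signs for 42 of 58 members in Sox11 cKO, against 22 in Sox4 cKO and 21 in dcKO. Of all 55681 probes, 30944, 28514 and 24780 shared no sign between the arrays, in the same order. The member counts rest on the treatment of the dye. The shared dye effect of a probe was estimated from the same 6 arrays. A ratio set apart on 1 array, as on Sox11 cKO replicate 2, therefore enters it. The part of that array in the signs that turned was not tested. With the shared dye effect taken out opposite signs were found for 20 of 58 members in Sox11 cKO, 40 in Sox4 cKO and 21 in dcKO, and 49 of 58 were below 0 on Sox11 cKO replicate 2 but 27 of 58 above 0 on replicate 1. The same counts over all probes were not computed. Among members above background, 29 of 54 had a ratio below -1.5 on Sox11 cKO replicate 2, where 2.18% of all probes above background did, and 2 had a ratio above 1.5 (1.16% of all). On dcKO replicate 2 the corresponding counts were 13 of 49 below -1.5 (1.53% of all) and 0 above 1.5 (1.32% of all).

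**Figure D1:**
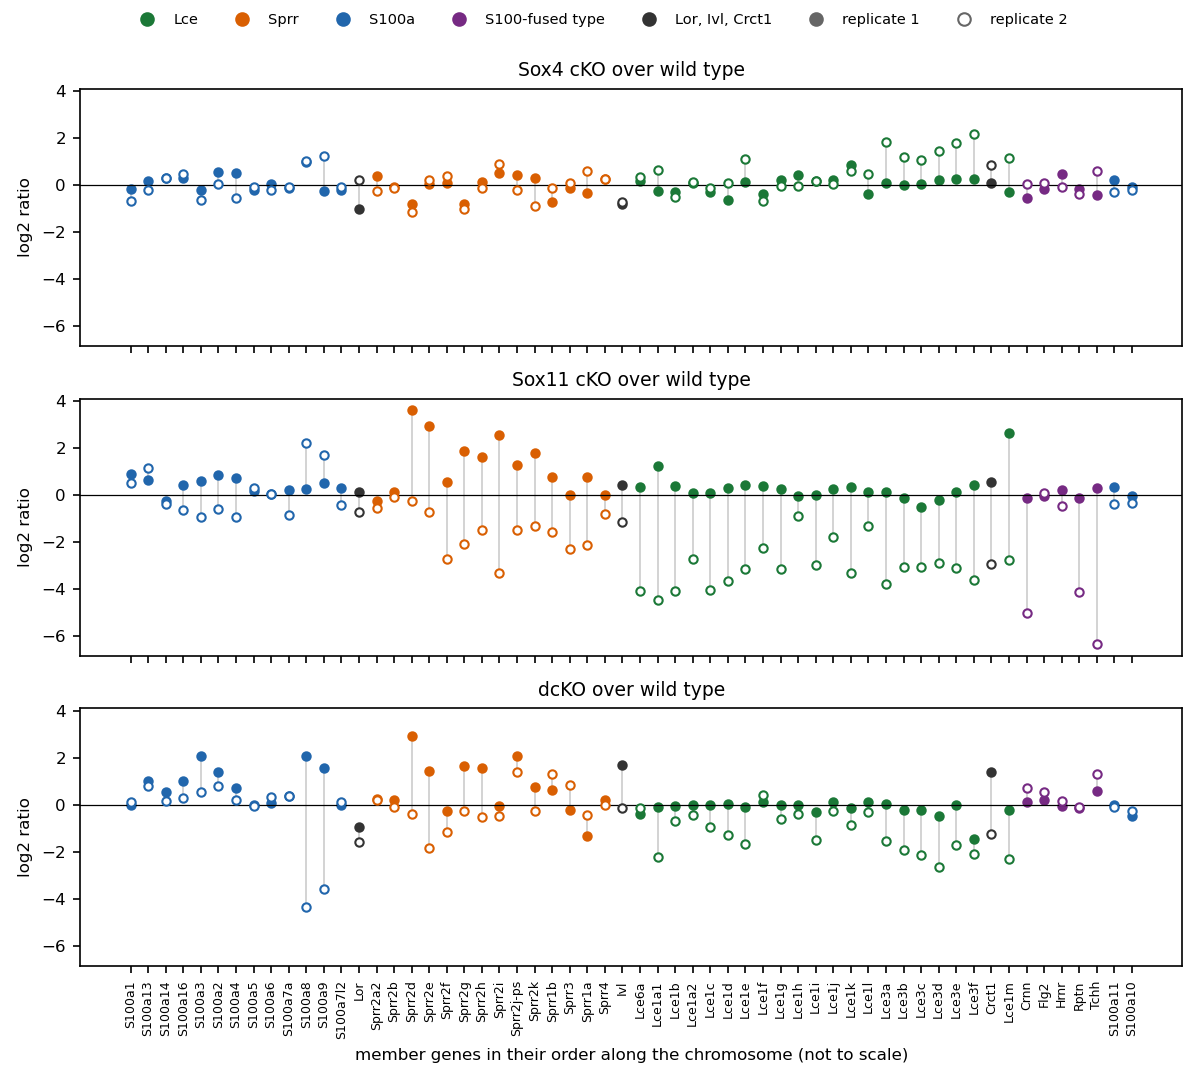
Log2 ratio of knockout over wild type for the 58 member genes, placed along the x axis in their order on chromosome 3, with 1 panel per genotype; filled points are replicate 1 and open points replicate 2. In the Sox11 cKO panel the open points of the Lce genes lie between -4.45 and -0.87 while the filled points scatter around 0.

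The other arrays had few members past the same limits in the lower direction. No member had a ratio below -1.5 on Sox4 cKO replicate 1, Sox4 cKO replicate 2, Sox11 cKO replicate 1 or dcKO replicate 1, where 0.671%, 1.04%, 0.672% and 1.43% of all probes above background did. Ratios above 1.5 were found for 0 of 48 members on Sox4 cKO replicate 1 (0.386% of all probes), 3 of 49 on Sox4 cKO replicate 2 (0.545%), 7 of 49 on Sox11 cKO replicate 1 (0.305%) and 8 of 36 on dcKO replicate 1 (1.28%). The 3 on Sox4 cKO replicate 2 were Lce3a, Lce3e and Lce3f, which were not well above background in the wild-type RNA of that array. Of the 7 on Sox11 cKO replicate 1, 6 were Sprr2 genes and 1 was Lce1m. The 8 on dcKO replicate 1 were Sprr2d, Sprr2g, Sprr2h, Sprr2j-ps, Ivl, S100a3, S100a8 and S100a9, and none was an Lce gene.

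The late cornified envelope genes, which encode small proteins that reinforce the envelope late in differentiation, were low in knockout against wild-type RNA on the second array of Sox11 cKO and of dcKO, and near the wild-type level on the first. Their median ratio was 0.11 and 0.48 on the Sox4 cKO arrays, 0.26 and -3.12 on the Sox11 cKO arrays, and -0.06 and -1.26 on the dcKO arrays. On Sox11 cKO replicate 2 all 21 were below 0 and 19 of 21 below -1.5, and on dcKO replicate 2, 20 of 21 were below 0 and 9 of 21 below -1.5. Their median log2 fold change was 0.21 ± 0.26 (SD of the 2 array medians) in Sox4 cKO, -1.49 ± 2.39 in Sox11 cKO and -0.60 ± 0.85 in dcKO, while the median of all probes lay between -0.01 and 0.00 on every array. With the dye effect shared by the 6 arrays taken out, the Lce medians became -0.53 and 1.02, -0.42 and -2.49, and -0.77 and -0.51, so that the sign on the first array of Sox4 cKO and of Sox11 cKO turned. That effect was estimated with Sox11 cKO replicate 2 among the arrays, where the Lce median ratio was furthest from 0.

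The levels in each RNA show which side of the ratio differed. Across the 6 arrays the median Lce level in wild-type RNA was 7.40, 7.13, 6.97, 10.52, 5.30 and 7.02, in the order Sox4 cKO, Sox11 cKO and dcKO with replicate 1 first, and in knockout RNA it was 7.23, 7.45, 7.51, 6.73, 5.17 and 5.50. The wild-type RNA of Sox11 cKO replicate 2 was thus the highest, and it was the highest of the 6 wild-type RNAs for 18 of the 21 Lce genes and 41 of the 58 members. There the Lce genes lay at a median of 3.38 above the median of the other wild-type RNAs, and the knockout RNA of the same array at -0.11 from the other knockout RNAs. A different share of differentiated cells and a different amount of RNA per cell cannot be told apart in such bulk samples. The summed level of the 6 basal markers in that wild-type RNA was 18.56, against 17.68 to 18.49 in the other wild-type RNAs. In the knockout RNA of that array it was 17.53, the lowest of the 6 knockout RNAs. The summed level of 6 markers of leukocytes other than neutrophils was highest in both RNAs of that array, at 11.66 in knockout and 11.59 in wild-type RNA against 10.79 to 11.27 elsewhere, with Itgam and Cd3e the 2 of 6 above background on all arrays and Cd207 and Lyz2 above it on none. The part of cell composition in the Lce and S100-fused values was not tested.

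**Figure D2:**
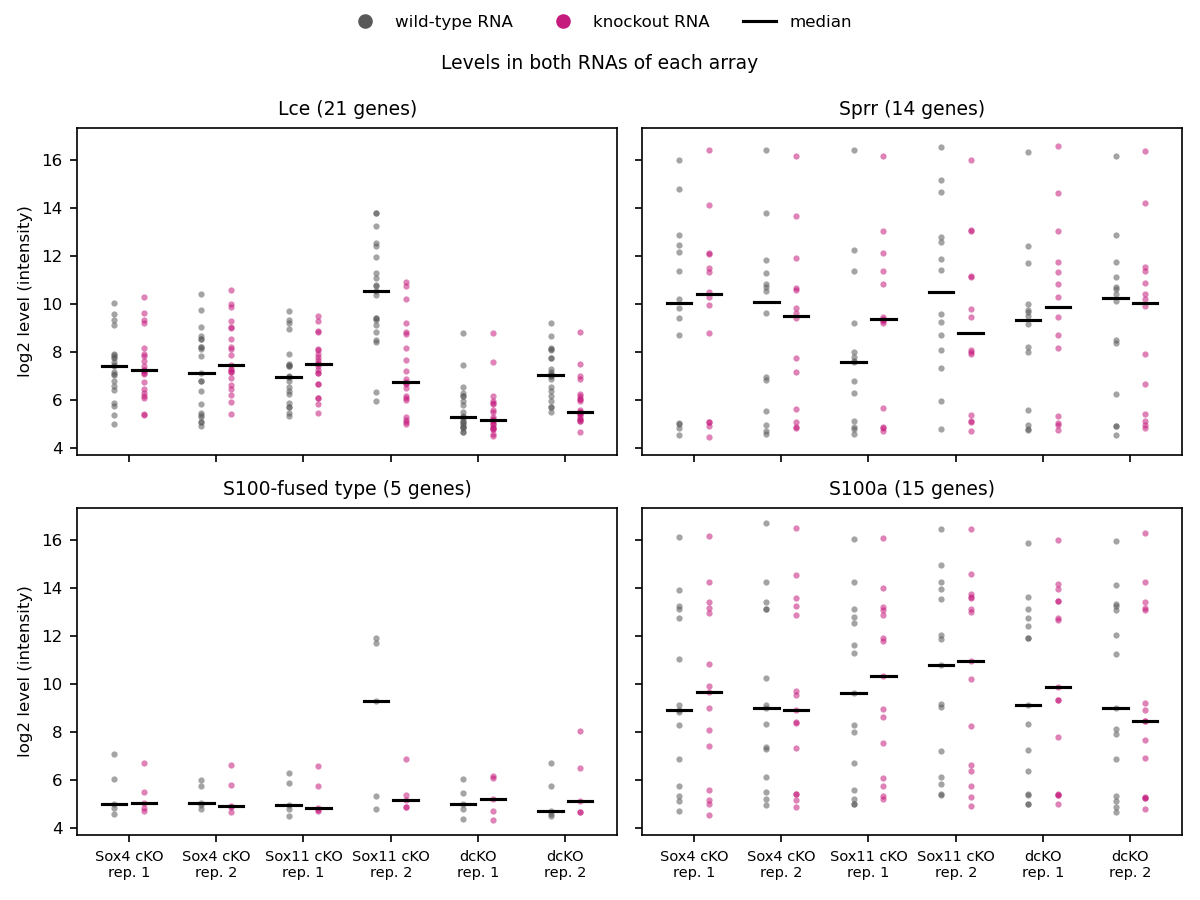
Log2 level of each gene in wild-type and in knockout RNA on each of the 6 arrays, for the Lce, Sprr, S100-fused and S100a genes; points are genes and bars are medians. The wild-type RNA of Sox11 cKO replicate 2 has the highest Lce median, 10.52, and both RNAs of dcKO replicate 1 have the lowest, 5.30 and 5.17.

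On dcKO replicate 1 both RNAs were low. The Lce level was the lowest of the 6 arrays for 17 of 21 genes in wild-type RNA and for 16 of 21 in knockout RNA, and only 8 Lce genes were above background in wild-type RNA and 4 in knockout RNA. The ratios of the other 13 genes on that array compare values that were not well above background.

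Within the subfamily the Lce3 genes, known for their induction in injured or inflamed skin, were set apart from the Lce1 genes on Sox4 cKO replicate 2. There the median ratio was 1.63 for the 6 Lce3 genes and 0.12 for Lce1, against 0.16 and -0.07 on Sox4 cKO replicate 1. On replicate 2 the Lce3 wild-type levels lay at a median of -1.40 from the other wild-type RNAs. The knockout levels there lay at 0.12 from the other knockout RNAs. Only 3 of the 6 Lce3 genes were above background in that wild-type RNA. In dcKO the Lce3 medians were -0.20 and -1.99 and the Lce1 medians -0.02 and -0.76. For Lce3f the levels in Sox4 cKO RNA were 8.16 and 7.24 against 7.88 and 5.08 in wild-type RNA of the same arrays, and in dcKO RNA 4.49 and 5.20 against 5.93 and 7.28. The knockout RNA was the higher on both Sox4 cKO arrays and the lower on both dcKO arrays, where it was not well above background, so that Lce3f was at least 2.44-fold lower in dcKO. On Sox4 cKO replicate 1 the direction turned with the shared dye effect taken out, to -0.19 for Lce3f and a median of -0.45 for Lce3, with all 6 Lce3 genes below 0. Neither difference passed the test (limma, adjusted p = 0.802 and 0.413).

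Lce3d and Lce3c, whose probes gave strong mean signals over all arrays, showed the same division. Lce3d had ratios of 0.22 and 1.45 in Sox4 cKO, -0.21 and -2.89 in Sox11 cKO and -0.46 and -2.63 in dcKO. Lce3c had ratios of 0.04 and 1.07, -0.51 and -3.07, and -0.20 and -2.13 in the same order. Both were lower in knockout RNA on all 4 arrays of Sox11 cKO and dcKO, by less than 1 log2 unit on the first array and by more than 2 on the second. On dcKO replicate 1 neither was well above background in knockout RNA, which limits the size of the ratios there. The Lce3d fold change was -1.55 ± 1.90 (SD of the 2 arrays) in Sox11 cKO and -1.54 ± 1.54 in dcKO, with limma adjusted p of 0.63 and 0.293. Lce3a and Lce3e, which with Lce3f had the Sox4 cKO arrays furthest apart, had ratios of 0.11 and 1.85, and of 0.27 and 1.80, in Sox4 cKO.

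Lce1a2, also with a strong signal, stood out on 1 array. Its wild-type levels were 9.13, 9.73, 9.19, 11.95, 8.79 and 9.22 in array order, and its knockout levels 9.21, 9.87, 9.30, 9.22, 8.77 and 8.81. All but the wild-type RNA of Sox11 cKO replicate 2 lay below 10. Lce1a1 had ratios of 1.23 and -4.45 in Sox11 cKO, and Lce1m 2.65 and -2.75, both higher in knockout RNA on the first array and lower on the second. Lce1c was near 0 on the first array of Sox11 cKO (0.09) and at -4.02 on the second. Lce1f had the lowest mean Lce ratio in Sox4 cKO (-0.36 and -0.67), and Lce1j the highest mean ratio in dcKO among those above background on both arrays (0.14 and -0.27). Second probes of Lce1a2, Lce1c and Lce1i had ratios of -4.48, -3.70 and -1.74 on Sox11 cKO replicate 2, lower as well, and near-identical Lce copies may share a probe's signal.

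The S100-fused genes, large repeat proteins with a calcium-binding amino end, parted even further on the Sox11 cKO arrays. Their median ratio was -0.05 on replicate 1 and -4.13 on replicate 2. Trichohyalin (Tchh), which hardens the inner root sheath of the hair follicle, had wild-type levels of 7.08, 5.98, 6.29, 11.70, 5.46 and 6.69 and knockout levels of 6.68, 6.60, 6.57, 5.37, 6.06 and 8.02 in array order. Apart from the wild-type RNA of Sox11 cKO replicate 2 the levels lay within 5.37 to 8.02, and the ratio of that array was -6.33 against 0.28 on its partner. Cornulin (Crnn), a squamous envelope protein, had ratios of -0.10 and -5.02 in Sox11 cKO, and between -0.56 and 0.74 on the other 4 arrays. Repetin (Rptn) was above background in 1 RNA only, the wild type of Sox11 cKO replicate 2, at 9.27 against 4.94 on replicate 1. Its lower level in Sox11 cKO thus rests on that 1 array, and it did not pass the test (limma, adjusted p = 0.434). Filaggrin-2 (Flg2) and hornerin (Hrnr), filaggrin-like proteins of the granular layer, were above background on no array.

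Filaggrin itself had no probe under the rule. A probe outside the rule, named Flg only by the study's own tables and chosen after its values were seen, had ratios of 0.02 and -4.84 in Sox11 cKO, with wild-type levels of 5.08 and 10.18. The second of these was the highest of the 6 wild-type levels, the others lying between 4.58 and 5.71.

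The small proline-rich genes, whose products bridge other envelope proteins, differed in direction between the Sox11 cKO arrays as well. The median Sprr ratio was 0.08 and -0.11 in Sox4 cKO, 1.04 and -1.47 in Sox11 cKO, and 0.44 and -0.25 in dcKO. All 14 were below 0 on Sox11 cKO replicate 2, with 6 of the 13 above background below -1.5, while 6 of 11 were above 1.5 on replicate 1. The wild-type RNA of Sox11 cKO replicate 1 was the lowest of the 6 for 8 of 14 Sprr genes, at a median of -1.51 from the other wild-type RNAs, and that of replicate 2 the highest for 8 of 14. The median Sprr fold change was 0.04 in Sox4 cKO, -0.24 ± 1.77 (SD of the 2 array medians) in Sox11 cKO and 0.25 ± 0.49 in dcKO. With the shared dye effect taken out the sign of the Sox4 cKO array medians (-0.52 and 0.36) and of dcKO replicate 2 (0.47) turned.

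Sprr2d, Sprr2e and Sprr2i, whose promoters are given above, showed this division in Sox11 cKO. Sprr2d ratios were -0.81 and -1.15 in Sox4 cKO, 3.61 and -0.26 in Sox11 cKO, and 2.93 and -0.40 in dcKO. Its wild-type level was 7.77 on Sox11 cKO replicate 1 and between 11.41 and 12.89 on the other 5 arrays, whereas its knockout level was highest on dcKO replicate 1, at 14.63. Sprr2e ratios were 2.95 and -0.72 in Sox11 cKO and 1.43 and -1.83 in dcKO. Sprr2i ratios were 2.56 and -3.32 in Sox11 cKO, from wild-type levels of 6.77 and 12.78 and knockout levels of 9.33 and 9.45. In each of these genes the pair of arrays disagreed in sign in Sox11 cKO, and for Sprr2d and Sprr2e also in dcKO. With the shared dye effect taken out the signs still differed for Sprr2i in Sox11 cKO (1.57 and -2.34) and Sprr2e in dcKO (0.29 and -0.70). The other pairs were then both above 0, Sprr2d at 2.35 and 1.00 in Sox11 cKO and 1.68 and 0.86 in dcKO, and Sprr2e at 1.81 and 0.41 in Sox11 cKO. Sprr2f, dim on most arrays, had ratios of 0.54 and -2.69 in Sox11 cKO.

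Sprr1a and Sprr1b, the type 1 genes that also serve as markers of stress and wounding, differed from each other in dcKO. Sprr1a ratios were -1.32 and -0.43 and Sprr1b ratios 0.63 and 1.33, lower and higher in knockout RNA on both arrays. Neither passed the test in dcKO (limma, adjusted p = 0.658 and 0.465), and the difference between the genes was not tested. In Sox11 cKO both were higher on replicate 1 and lower on replicate 2, with ratios of 0.76 and -2.13 for Sprr1a and 0.77 and -1.58 for Sprr1b. The transcribed pseudogene Sprr2j-ps had dcKO ratios of 2.06 and 1.42, a fold change of 1.74 (SE 0.35; limma, adjusted p = 0.057).

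Sprr2a2 was the 1 member that rose in dcKO by the full rule, and only by 1 of its 3 probes. That probe read dcKO levels of 13.27 and 13.99 against wild-type levels of 9.68 and 10.76 on the same arrays, which do not overlap. On the other 4 arrays its knockout levels were 11.09, 10.44, 10.95 and 12.31 and its wild-type levels 10.94, 11.94, 12.16 and 14.01. The wild-type RNA of Sox11 cKO replicate 2 thus read as high as the dcKO RNAs. The ratio was higher than 3 on both dcKO arrays, 3.58 and 3.24, and 0.15, -1.51, -1.21 and -1.70 on the others. The log2 fold change in dcKO was 3.41 (SE 0.23, n = 2 arrays; limma, adjusted p = 0.00125). It exceeded that of Sox4 cKO by 4.09 (limma, adjusted p = 0.00589) and that of Sox11 cKO by 4.86 (limma, adjusted p = 0.00401). The rise kept its size but missed the threshold with the scanner's processed intensities, at 3.32 (limma, adjusted p = 0.201), and without dcKO replicate 2, at 3.04 (adjusted p = 0.0534).

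The other probes assigned to Sprr2a2 gave smaller values. The probe reported for the gene had dcKO ratios of 0.25 and 0.22, with levels that spanned 0.58 log2 units over the knockout RNAs and 0.52 over the wild-type RNAs, and the third, above background on 2 arrays, 0.55 and 0.64. All 3 probes were above 0 on both dcKO arrays. Sprr2a1, Sprr2a2 and Sprr2a3 are near-identical copies, so that the copy behind each probe is uncertain.

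Loricrin, the main protein of the mature envelope, and involucrin, its early scaffold, followed different patterns over the arrays. The Lor levels in knockout RNA were 7.67, 7.15, 7.90, 8.86, 6.52 and 7.38 in array order and those in wild-type RNA 8.66, 6.93, 7.78, 9.57, 7.45 and 8.95. The Lor level was lower in knockout than in wild-type RNA on 4 of 6 arrays, both dcKO arrays among them, where the 2 knockout levels were below both wild-type levels. Its ratios of -0.94 and -1.56 gave a dcKO fold change of -1.25 (SE 0.32), which did not pass the test (limma, adjusted p = 0.122). With each array centred on its median in place of loess it was called, at -1.67 (limma, adjusted p = 0.0202).

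Involucrin was lower in knockout RNA on both Sox4 cKO arrays. Its ratios were -0.78 and -0.73 there, 0.42 and -1.16 in Sox11 cKO and 1.69 and -0.13 in dcKO. With the shared dye effect taken out the Ivl ratios had 1 sign per genotype, at -1.34 and -0.17 in Sox4 cKO, -0.14 and -0.60 in Sox11 cKO and 1.14 and 0.43 in dcKO. Its wild-type levels were 9.80, 10.34, 7.51, 9.68, 8.08 and 8.57 and its knockout levels 9.02, 9.61, 7.93, 8.52, 9.78 and 8.44. In Sox4 cKO both knockout levels lay below both wild-type levels, and the fold change of -0.76 did not pass the test (limma, adjusted p = 0.644). Crct1, a gene beside the Lce cluster, had ratios of 0.12, 0.86, 0.57, -2.92, 1.41 and -1.25 in array order, with opposite signs in Sox11 cKO and in dcKO. With the dye effect taken out the Sox11 cKO ratios of Crct1 were both below 0 (-0.33 and -2.02).

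**Figure D3:**
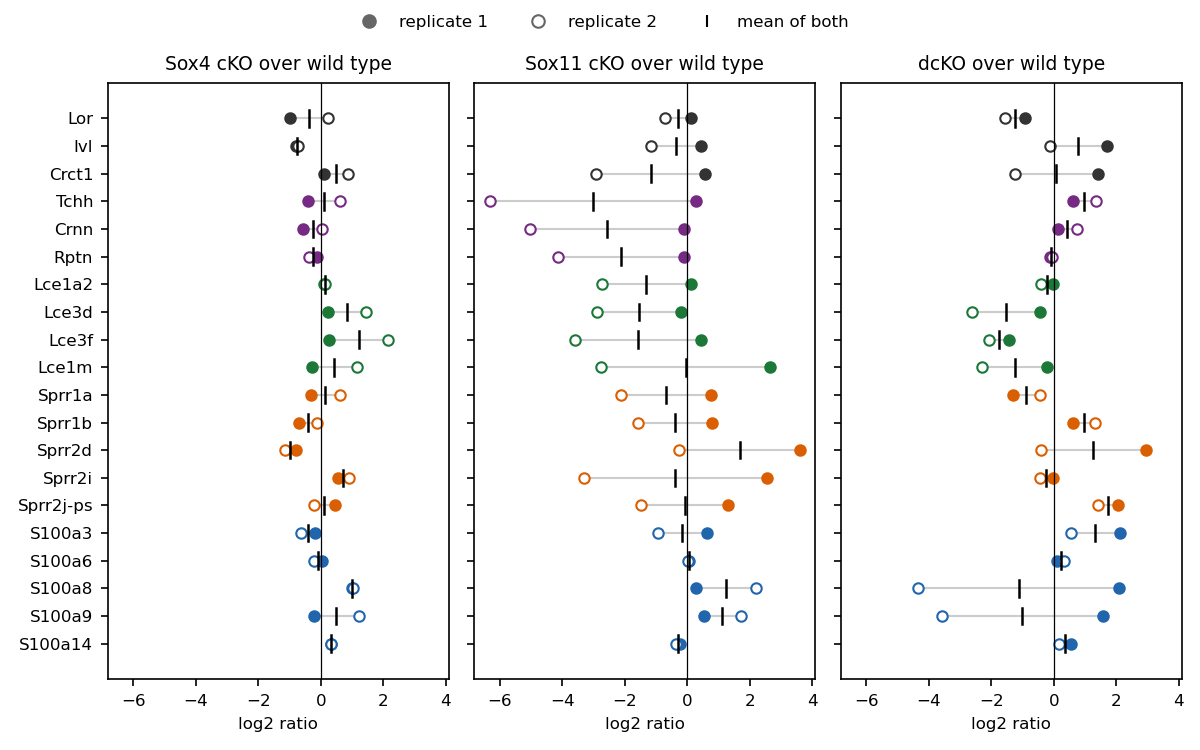
Log2 ratio of knockout over wild type for 20 named members in each genotype; each point is an array, filled for replicate 1 and open for replicate 2, and the bar is their mean. The distance between the 2 points of a gene is widest for Tchh in Sox11 cKO (0.28 and -6.33) and for S100a8 in dcKO (2.08 and -4.34).

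By their median span, the S100a genes varied less over the wild-type RNAs than the other subfamilies. Their levels spanned a median of 1.01 log2 units there, against 4.49 for Lce, 4.57 for the S100-fused genes and 2.95 for Sprr. The wild-type spans of S100a8, S100a9 and S100a4 were wider, at 4.52, 3.73 and 2.88. Over the knockout RNAs the median span was 0.92 for S100a, 3.05 for Lce, 0.73 for the S100-fused genes and 1.74 for Sprr. Their median ratio was 0.05 and -0.08 in Sox4 cKO, 0.33 and -0.37 in Sox11 cKO, and 0.55 and 0.16 in dcKO. Under other scalings the sign of these small medians turned on both Sox4 cKO arrays and on dcKO replicate 2, but on neither Sox11 cKO array. S100a6, a calcium sensor of dividing cells, had ratios between -0.22 and 0.33 on all 6 arrays. S100a14 ratios lay between -0.37 and 0.55, and S100a10, the partner of annexin A2, had ratios between -0.45 and -0.02. S100a16 was at -0.64 on Sox11 cKO replicate 2 and between 0.31 and 1.04 elsewhere. S100a1, which was dim, had ratios between -0.68 and 0.88.

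S100a3 and S100a2 rose in dcKO by the adjusted p alone, with fold changes below the 1.5 limit. S100a3, a protein of the hair cuticle, had dcKO levels of 9.35 and 8.45 against wild-type levels of 7.24 and 7.90, a fold change of 1.33 (SE 0.22; limma, adjusted p = 0.0315). S100a2 had dcKO levels of 7.77 and 7.64 against wild-type levels of 6.38 and 6.85, a fold change of 1.09 (SE 0.20; limma, adjusted p = 0.0409). In both genes the 2 knockout levels lay above the 2 wild-type levels. Both calls were lost with an offset of 50, with processed intensities, with median centring, without the dye term and without either dcKO array (limma, adjusted p = 0.087 to 0.444 for S100a2 and 0.054 to 0.387 for S100a3). The S100a2 call was also lost with dim probes left out (limma, adjusted p = 0.057) and without either Sox4 cKO array (0.0615), and the S100a3 call with the arrays of dcKO alone (0.0708). S100a13 was at 1.01 and 0.79 in dcKO, with a limma adjusted p of 0.0658.

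S100a8 and S100a9, the pair that forms calprotectin and is induced in stressed keratinocytes, had the dcKO arrays furthest apart. S100a8 levels in dcKO RNA were 13.97 and 6.91 against wild-type levels of 11.90 and 11.24, and S100a9 levels in dcKO RNA were 13.47 and 8.43 against 11.90 and 12.02. The dcKO RNA thus held the highest S100a8 level of the 6 knockout RNAs on replicate 1 and the lowest on replicate 2, while the wild-type levels of these arrays differed by less than 1 log2 unit. The S100a8 ratio was 2.08 and -4.34, and the S100a9 ratio 1.57 and -3.59. Elsewhere the S100a8 ratio was above 0 on all 4 arrays, 0.99 and 1.02 in Sox4 cKO and 0.27 and 2.20 in Sox11 cKO, of which Sox11 cKO replicate 1 turned to -0.47 with the dye effect taken out, without passing the test (limma, adjusted p = 0.906 and 0.953). The S100a8 wild-type levels of the Sox4 cKO arrays lay -2.32 and -3.87 from the median of the other wild-type RNAs. Those of S100a9 lay -0.86 and -3.59 from it. The knockout levels of the same arrays were low as well. They lay -1.99 and -3.50 from the median of the other knockout RNAs for S100a8, and -0.99 and -2.27 for S100a9.

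Neutrophils also express this pair. Of 8 neutrophil markers with a probe, Mpo, Ngp, Camp and Retnlg were above background on no array, and the summed level of the list was 12.50 to 13.32 in knockout RNA and 12.42 to 12.95 in wild-type RNA, set almost wholly by Csf3r, which was between 12.33 and 13.27 in every RNA. The summed level in dcKO RNA was 12.93 and 12.80, and the part of such cells in the S100a8 and S100a9 values was not tested.

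**Figure D4:**
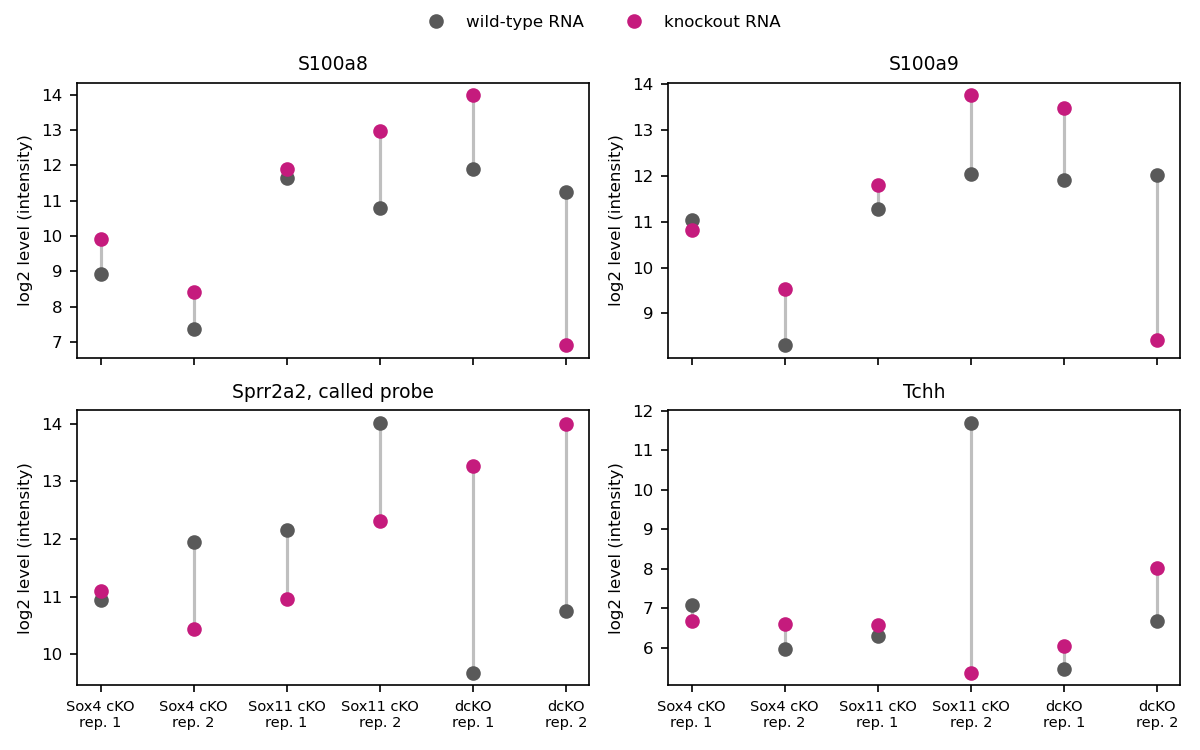
Log2 level in wild-type and knockout RNA on each of the 6 arrays for S100a8, S100a9, the called probe of Sprr2a2, and Tchh. The dcKO RNA of replicate 2 is the lowest knockout value for S100a8 (6.91), both dcKO values are the highest knockout values for Sprr2a2, and the wild-type RNA of Sox11 cKO replicate 2 stands alone for Tchh (11.70).

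Some other genes inside the cluster, outside the rule, were also low on Sox11 cKO replicate 2. Of 11 such protein-coding genes 9 had a probe, and 0 were called in any genotype by limma. Of all probes, 0.142%, 0.0862% and 0.756% were called in Sox4 cKO, Sox11 cKO and dcKO. At an unadjusted p below 0.05 were 2, 4 and 0 of these genes in the same order (7.40%, 6.84% and 13.0% of all probes). On that array Prr9 had a ratio of -4.87, Kprp -4.86 and Tchhl1 -4.63, against 2.39, 1.05 and 0.03 on replicate 1. Lelp1 was at -0.30 and Smcp at 0.69, so that not every gene of the cluster was lower there.

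Enzymes and partners of the envelope, encoded elsewhere in the genome, were called once. Of 21 such genes, all with a probe, 0 were called in Sox4 cKO or Sox11 cKO, and 1 rose in dcKO. Of all probes, 0.142%, 0.0862% and 0.756% were called in the same order. At an unadjusted p below 0.05 were 3, 6 and 8 in Sox4 cKO, Sox11 cKO and dcKO (7.40%, 6.84% and 13.0% of all probes). The gene that rose was Cst6, cystatin M/E, an inhibitor of the proteases of cornification. Its ratios were 1.53 and 2.24 in dcKO (fold change 1.89; limma, adjusted p = 0.033). The Cst6 call was lost with median centring, an offset of 50, processed intensities and without either dcKO array, at 1.31 to 2.47 (limma, adjusted p = 0.0658 to 0.45). The median ratio of the list was -0.73 on Sox11 cKO replicate 2 and -0.13 on replicate 1, with Tgm5 at -3.35 on the former. Tgm1, the main cross-linking enzyme of the envelope, was at 0.84 and 0.59 in Sox11 cKO and -1.18 and 0.15 in dcKO, and Krt10 at 0.14 and -0.73 and -0.09 and 0.51. Krt5 and Krt14, the basal keratins, had ratios of -1.44 and -0.48 on Sox11 cKO replicate 2.

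Of 16 regulators of terminal differentiation, all with a probe, 1 fell in dcKO and 0 were called in Sox4 cKO or Sox11 cKO. Of all probes, 0.756%, 0.142% and 0.0862% were called in these 3 comparisons. At an unadjusted p below 0.05 were 4, 6 and 8 in Sox4 cKO, Sox11 cKO and dcKO (7.40%, 6.84% and 13.0% of all probes). The gene that fell was Fosl1, a Fos-family partner in AP-1, whose motif is marked in the Sprr2 promoters above. Its dcKO levels were 7.90 and 8.37 against wild-type levels of 9.81 and 9.90, and its ratios were 0.88 and 1.59 in Sox4 cKO, -0.58 and 0.14 in Sox11 cKO and -1.91 and -1.53 in dcKO. The fold change in dcKO was -1.72 (SE 0.15; limma, adjusted p = 0.00344), and it was called against Sox4 cKO and Sox11 cKO as well. It missed the threshold with processed intensities, at -1.94 (limma, adjusted p = 0.201), and without dcKO replicate 1 or 2 (limma, adjusted p = 0.0586 and 0.0932).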

How the data were processed

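Total RNA of 6 pairs of keratinocyte cultures was hybridised to 6 two-colour Agilent 8x60K mouse arrays, 2 per knockout genotype, all on 1 slide. The deposited scanner files hold, per the file headers, median spot and background intensities read by Agilent Feature Extraction 11.0.1.1, processed intensities in which background and dye had been adjusted, and the log10 ratio of red over green. A log2 value table made by the authors with limma (background correction with an offset, loess, removal of a colour effect) was used as an alternative. Its columns correlated at 0.98 to 0.99 with the knockout over wild-type ratios computed here once a shared dye effect was removed, which sets their scale and direction, and their medians were 0.00452, -0.00052, 0.00272, -0.00102, -0.0020 and -0.00664 in array order, so that each array was centred near 0 and the exact centring is unknown.

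Median signals were corrected with normexp (offset 16) and normalised by loess within arrays and Aquantile between arrays in limma 3.58.1 (R 4.3.3). The 3671 control spots and 364 to 551 spots per array marked as outliers were left out, and spots of one probe were averaged. Of 55681 probes 50.9% were named by matching accessions, without versions, to a RefSeq gene table. All 6 arrays entered 1 fit with a coefficient per genotype and a dye term (2 residual degrees of freedom, 5.37 added by eBayes), which equals a block on the replicate number. Same-numbered arrays deviated together (correlations 0.316, 0.244 and 0.125 between genotypes, all with the same dye orientation), and the labels do not tie the numbers to a shared culture. The number of arrays limits the precision, and p-values measure the spread between these arrays only. A probe not well above background in either array of a group has a bound only, taken from the lowest signal well above background on each array.

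Genes were named by this rule: the single-copy genes, members called by any probe, the highest and lowest mean ratio per genotype among Lce, Sprr and S100a genes above background on both arrays, up to 3 members per genotype with arrays furthest apart, and the 3 probes of strongest signal per subfamily. The members, lists and tests were chosen with earlier results of these data known. The model was run on simulated data with large changes in dcKO only, independent errors and the spread of the less variable probes. That run does not show how the model fares for members whose arrays lay far apart. Alternatives were an offset of 50, processed intensities, the authors' table, median centring, no dye term, dye subtracted first, a genotype's own arrays only, a filter on dim probes, the mean over a gene's probes, and leaving out each array.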

Additional observations from a re-analysis of the deposited data

Results flagged for a closer look

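On Sox11 cKO replicate 2 the median level of the S100-fused genes in wild-type RNA was 9.27 and that of the S100a genes 10.78, each set apart from the other 5 wild-type RNAs by the gap between the highest value and the next, the latter narrowly. Taken per gene, the S100a wild-type levels there lay at a median of 0.71 above the other wild-type RNAs. The S100a knockout median of that array, 10.94, was also the highest among the knockout RNAs. By the same gap the Lce and Lce3 medians in that wild-type RNA, 10.52 and 12.91, were not set apart. Gene by gene, 16 of 58 members had 1 wild-type level set apart by such a gap at the high or the low end, 12 of them on this array. The members are not independent. The share over all probes was not computed, so that the count has no background to be read against. The called Sprr2a2 probe was 4.09 higher in dcKO than in Sox4 cKO and 4.86 higher than in Sox11 cKO, and both differences passed the limma test. The mean of the 2 array medians of the Lce genes was 0.29 in Sox4 cKO, where both medians were above 0, and -0.66 in dcKO, where both were below 0. For the Lce3 genes it was 0.89 and -1.10 in the same order. For the S100-fused genes it was -2.09 in Sox11 cKO, with both medians below 0, and 0.33 in dcKO, with both above 0. These differences between medians were not tested. Only 2 of the 5 S100-fused genes were above background on Sox11 cKO replicate 1 and on each dcKO array. Among those 2 the median on Sox11 cKO replicate 1 was 0.09, so that its sign rests on genes near background. With the shared dye effect taken out the medians of Sox4 cKO no longer shared a sign (-0.53 and 1.02 for Lce, -0.45 and 2.21 for Lce3), nor did those of the S100-fused genes in dcKO (-0.21 and 0.64).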

How the results depend on the processing

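The median over the 58 members was 0.10 in Sox4 cKO and became 0.079 with an offset of 50, 0.129 with processed intensities, 0.126 with median centring and 0.116 without dim probes. Leaving out 1 array gave -0.87 to 0.70, the lowest without Sox4 cKO replicate 2 and the highest without replicate 1. In dcKO it was -0.05, became -0.29 with median centring, and lay between -0.34 (without dcKO replicate 2) and 0.26 (without replicate 1). In Sox11 cKO it was -0.39, and lay between -1.48 (without Sox11 cKO replicate 1) and 0.19 (without replicate 2). The number of member probes called was 1 in dcKO against wild type, 0 with processed intensities or the mean over a gene's probes, 2 with the authors' table or median centring (adding Sprr2j-ps or Lor), and 3 with the genotype's own arrays (adding Lce3f and Sprr2j-ps), and 1 to 3 when an array was left out. In dcKO against Sox4 cKO it was 1, 0 with an offset of 50 or processed intensities, 3 with the authors' table (adding Ivl and S100a3), and 1 to 7 when an array was left out, 7 without either Sox11 cKO array. In dcKO against Sox11 cKO it was 1, 0 with an offset of 50 or processed intensities, and 0 to 26 when an array was left out, 0 without dcKO replicate 2 and 26 without Sox11 cKO replicate 1. In Sox11 cKO against wild type it was 0, and 0 to 28 when an array was left out, 28 without Sox11 cKO replicate 1 and 1 without replicate 2, and in Sox4 cKO against Sox11 cKO it was 0, and 0 to 27, the last without Sox11 cKO replicate 1. A genotype left with 1 array was assumed to vary like the others. The causes were not tested, beyond the fewer arrays in each such fit. With an array left out, the share of all probes called moved as well. Under the other settings that share was not computed. The members added there therefore have no background to be read against.

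Leaving out the replicate block changed no count of called members, and the adjusted p of the called Sprr2a2 probe was 0.00855, 0.0392 and 0.0236 in its 3 comparisons (limma), while S100a2 and S100a3 missed the threshold (0.246 and 0.287). On Sox11 cKO replicate 2 the subfamily medians stayed below 0 in 5 other scalings, at -3.44 to -2.49 for Lce, -1.85 to -0.72 for Sprr and -5.47 to -3.17 for the S100-fused genes. Of 1701 values of named members and subfamilies under an alternative, 1605 kept their sign and 1555 moved by less than the spread of the 2 arrays. A slide block could not be run, with 1 slide. Signal over background limits 24 members, which were above background on fewer than 6 arrays.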
